A study of Mus musculus with 10 samples.

Results

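The response of resident bone marrow macrophages to lipopolysaccharide (LPS, a cell wall component of Gram-negative bacteria) was described from 6 of the 10 RNA sequencing libraries of the series. Members were taken by their source label: 3 libraries of resident macrophages given 1 µg/ml LPS for 4 h and 3 of resident macrophages left untreated, with all 13809 genes of the deposited table. The untreated libraries are labelled with the same incubation of 4 h, without LPS. Both groups came from the marrow of C57BL/6 mice aged 12 weeks. Resident macrophages are the cells that a magnetic column held back with no prior staining, labelled CD163+, so the fraction is defined by its magnetism and not by a sort on markers. The remaining 4 libraries, 2 LPS-treated and 2 untreated, are of bone marrow derived macrophages (BMDM), labelled CD163-, which were grown for 6 days from the cells that passed the column. Their labels give the same LPS dose, incubation time and mouse age. BMDM enter here in the test of where the resident response differed, in a few untreated levels set beside the resident ones, and in the estimate of the spread. The labels name no sex and do not say whether replicates are separate animals or cultures. The p-values below therefore rest on library-to-library spread, which may be technical.

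LPS binds Toll-like receptor 4 with its co-receptors CD14 and MD-2, and the receptor signals through the adaptors MyD88 and TRIF to NF-kB, MAP kinases with AP-1, and interferon regulatory factors. In macrophages the first hours bring cytokine and chemokine transcripts together with feedback inhibitors of the same pathway. Marrow-resident macrophages are known for the support of erythroblasts, the recycling of iron and the removal of aged neutrophils.

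Values are normalised reads: each library's read counts had been divided by 1 factor of its own before deposit, and a gene with no read is listed at 1. The 6 resident libraries hold 27.9 to 35.1 M recovered reads, and across genes their log2 values correlated at 0.982 to 0.990 within a group and 0.971 to 0.986 between groups. Replicate 1 of each resident group stood apart, since only these 2 of the 10 libraries carried transcripts of 4 Y-linked genes (sums of 3965 in the LPS-treated and 3374 in the untreated one, and 4 in each other library). The same 2 libraries also held the X-linked transcript Xist, at 2172 in the LPS-treated and 1651 in the untreated one, against 7873 to 13871 in the others. Results that rest on these 2 libraries, called the Y-linked pair below, are given with and without them. Of the identity genes, Cd163, whose protein is the haemoglobin scavenger of the label, had 6476, 4131 and 4918 in LPS-treated libraries, against 10740.4, 5282 and 6487 in untreated ones, and a mean of 47.9 in untreated BMDM. Macrophage transcripts were therefore abundant, but so were others. The 12 neutrophil markers summed to 334040 to 373002 normalised reads in LPS-treated libraries and to 215087 to 384464 in untreated ones. B lineage, erythroid and megakaryocyte markers were read in every resident library as well, while T and NK cell markers were near 0 (sums of 201 to 246 in LPS-treated and 113 to 299 in untreated libraries). In bulk RNA, fewer cells of a type and less RNA per cell cannot be told apart. Of 9 marker lists for cell types other than macrophages and monocytes, 1 had called members, the neutrophil list with 2 of 12. The monocyte list had 2 of 4, and the called members of both lists were lower in LPS-treated libraries. The uncalled monocyte markers, Ly6c2 and Ms4a4c, were higher there. The part of other cell types in the results below was not tested.

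**Figure D1:**
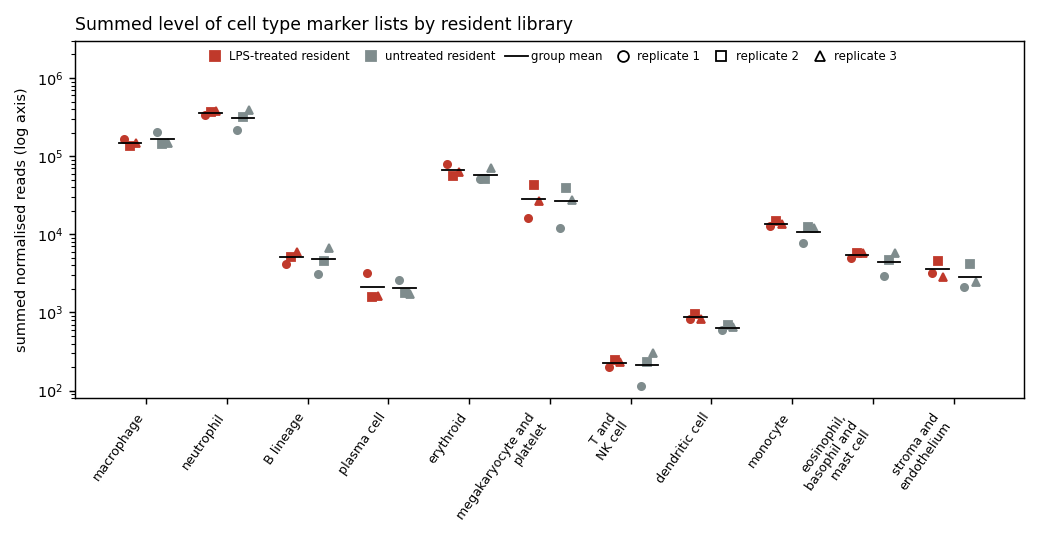
Summed normalised reads of 11 cell type marker lists (log axis) in each resident library, LPS-treated in red on the left of each pair and untreated in grey, with symbols for replicates and lines for group means. The groups overlap in 9 of the 11 lists and are apart in the dendritic cell and monocyte lists, and replicate 1 holds the lowest megakaryocyte and neutrophil sums of its group. Most of the monocyte sum is Ly6c2, which like Ms4a4c was higher but not called, while Ccr2 and F13a1 of that list fell.

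Changes below are log2 of LPS-treated over untreated ± SE, from limma on log2(normalised reads + 1), with Benjamini-Hochberg adjustment over all 13755 genes tested. Genes under an adjusted p of 0.05 are the called ones. Rose and fell are used of called genes only. LPS-treated libraries had 1013 genes higher and 766 lower, 1779 in all, which is 12.9% of the genes tested (7.36% higher and 5.57% lower). Most of the changes were small. Of the called genes, 226 rose and 85 fell by at least 2-fold (1.64% and 0.618% of all genes), and 33 rose and 3 fell by at least 4-fold. In 1006 of the risers and 761 of the fallers the libraries of the groups did not overlap, against 13.8% of all genes with every LPS-treated library above and 13.3% with every one below. These counts use the spread of all 10 libraries. Fitted on the 6 resident libraries alone (the resident-only fit), 529 genes were called (3.85%), of which 522 are among the 1779. Leaving out LPS replicate 2 left 970 calls and leaving out untreated replicate 3 left 1185, while 2840 genes (1549 higher and 1291 lower) were called without the Y-linked pair. With equal library totals the median of all genes moved to -0.12 on the log2 scale and 27.1% of the calls were higher, against 56.9% with the deposited scaling and 47.8% with quantile normalization. The balance of risers and fallers changed with equal totals in 23 of the 63 gene lists counted, and brackets after a list's counts give its risers and fallers with equal totals, without the Y-linked pair and in the resident-only fit. A list's counts are to be read beside the shares of all genes, 7.36% higher and 5.57% lower. Calls of genes were followed over 24 refits with other settings or without libraries, and lost calls are named beside the genes. The refit with a filter at 100 leaves out low genes.

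Cytokine genes rose, and most of them stood higher in untreated resident libraries than in untreated BMDM. Il1b, the interleukin 1 beta gene, had 119893, 101091 and 107677 in LPS-treated libraries, against 33295, 26496 and 20716 in untreated ones. Its groups did not overlap, with a change of 2.05 ± 0.15 (adjusted p = 9.93e-05), and its mean in untreated BMDM was 245. Tnf changed by 1.34 ± 0.12 (adjusted p = 0.000208) and Il6 by 2.40 ± 0.49 (adjusted p = 0.0121). The 62 cytokine and chemokine genes had a median change of 0.91 in resident libraries, beside 4.72 in BMDM and 0.0024 over all genes in resident libraries. In 56 of them (90.3%) the mean of untreated resident libraries was above that of untreated BMDM, and over all 62 the median difference was 3.90 on the log2 scale. The same held for 53.3% of all genes tested (median 0.09) and for 81.1% of the 1013 risers (median 1.18). Among them 34 of 62 rose and 1 fell (34 and 1 with equal totals, 38 and 3 without the Y-linked pair, 26 and 0 resident-only). Ccl17, a ligand of the chemokine receptor CCR4, had the largest rise in that list, at 3.82 ± 0.38, with 45.3, 62.2 and 50.1 in LPS-treated libraries, against 3.57, 4.75 and 1.00 in untreated ones. Il1f6, which encodes interleukin 36 alpha, rose by 3.66 ± 0.46, and Ltb, the lymphotoxin beta gene and the faller of the list, changed by -0.61 ± 0.18 (adjusted p = 0.0481). Il1b, Tnf and Ccl17 stayed past the threshold in all 24 refits. Il1f6, left out by the filter at 100, kept its call in the other 23 refits. Il6 was not called with array weights (2.17, adjusted p = 0.0786). Ltb was not called with a pseudocount of 0.1, with no variance trend, in the resident-only fit or with untreated replicates 2 and 3, LPS replicates 2 and 3 and each BMDM library left out in turn (-0.65 to -0.48, adjusted p of 0.0505 to 0.162). With a pseudocount of 10 the changes of Ccl17 and Il1f6 were 2.26 and 2.04.

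The 14 largest rises outside the cytokine list included those of Ptx3, Saa3, Ptgs2, Thbs4 and Edn1. Ptx3, a long pentraxin that binds microbes and apoptotic cells, had 715, 1073 and 952 in LPS-treated libraries, against 34.8, 58.9 and 32.4 in untreated ones. The highest untreated library stood far under the lowest LPS-treated one, and the change was 4.44 ± 0.42 (adjusted p = 0.000244). Saa3, an acute phase serum amyloid A protein, had 7404, 10739 and 10038 in LPS-treated libraries, against 807, 1751 and 1309 in untreated ones, a change of 2.92 ± 0.24 (adjusted p = 0.000128). Ptgs2, the inducible cyclooxygenase that starts prostaglandin synthesis, had 11882, 6691 and 5303 in LPS-treated libraries, against 1809, 1141 and 749.7 in untreated ones. The groups were apart by over 2-fold in their nearest libraries, with a change of 2.70 ± 0.33 (adjusted p = 0.000997). Replicate 1 was the highest of each group, and leaving out the Y-linked pair gave a change of 2.69. Edn1, the precursor of the vasoconstrictor peptide endothelin 1, had 2519.6, 1510.1 and 1206 in LPS-treated libraries, against 562, 397 and 194 in untreated ones, and rose by 2.24 ± 0.36 (adjusted p = 0.00392). Thbs4, a matrix glycoprotein of the thrombospondin family, rose by 2.59 ± 0.25 (adjusted p = 0.000325). All 24 refits kept the calls of Ptx3, Saa3, Ptgs2, Edn1 and Thbs4.

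The other large rises included membrane proteins and enzymes. Steap4, a metalloreductase that reduces iron and copper, had 406, 470.1 and 506 in LPS-treated libraries, against 57.1, 97.8 and 105 in untreated ones, and its change was 2.44 ± 0.24 (adjusted p = 0.000356). Tarm1, an activating immunoglobulin-like receptor of myeloid cells, had 418, 377 and 395 in LPS-treated libraries, against 97.2, 81.7 and 77.2 in untreated ones. The libraries of each group lay close together and about 4-fold apart between groups (2.21 ± 0.12, adjusted p = 1.68e-05). Shisa3, of a family of transmembrane adaptor proteins, had 238, 259.7 and 335 in LPS-treated libraries, against 39.2, 44.6 and 28.6 in untreated ones (2.86 ± 0.25, adjusted p = 0.000173). Nipal1, of a family of magnesium transporters, rose by 2.15 ± 0.30, and Gucy2g, a receptor guanylyl cyclase, by 2.09 ± 0.30. The RNA-binding proteins A1cf, a cofactor of apolipoprotein B mRNA editing, and Rbm24, a splicing regulator of muscle, had changes of 2.28 ± 0.49 and 2.15 ± 0.42. A1cf was low, at no more than 31.4 normalised reads in any library. Tgoln2, a trans-Golgi network protein, and the transcript U90926 had changes of 2.88 ± 0.63 and 2.59 ± 0.58, and the mouse genome holds a near-identical copy of Tgoln2, so its reads are uncertain. The calls of Steap4, Tarm1, Shisa3, Nipal1 and Gucy2g held in all 24 refits. Rbm24 lost its call in the resident-only fit (adjusted p = 0.0543) and in no other refit. A1cf was not called with LPS replicates 2 and 3 left out in turn (2.10 to 2.16, adjusted p of 0.0534 to 0.0565). Tgoln2 was not called in the resident-only fit or without LPS replicate 3 (2.40 to 2.88, adjusted p of 0.0592 to 0.0749). U90926 was not called in the resident-only fit or without untreated replicate 2 (2.47 to 2.59, adjusted p of 0.0523 to 0.0923).

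**Figure D2:**
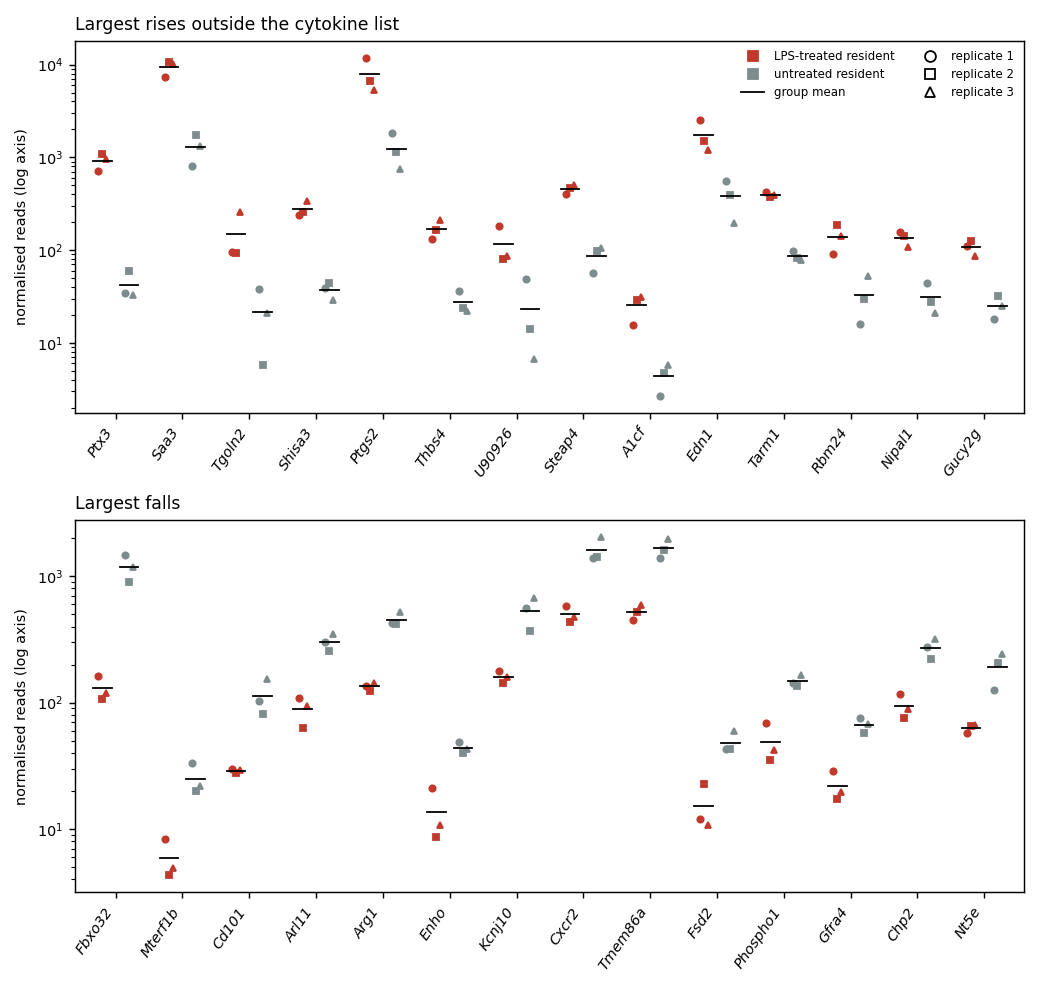
Normalised reads (log axis) of the 14 genes with the largest rises outside the cytokine list and of the 14 with the largest falls, 1 point per resident library with LPS-treated in red on the left of each pair and untreated in grey. The groups do not overlap in any of the 28 genes, as the rule that chose them requires; Ptx3 and Fbxo32 show the widest gaps.

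Promoter sequences of RefSeq (GRCm38.p6, 250 bases before to 50 after the start) were found for 10473 of the genes tested, among them 165 of the 226 that rose by 2-fold or more and 70 of the 85 that fell so. The AP-1 word TGANTCA, on either strand, stood in 15.8% of promoters of these risers, 7.14% of those of the fallers and 6.75% of all. The C/EBP word TTGCNNAA, which reads TTNNGCAA on the other strand, stood in 16.4%, 15.7% and 10.4%. The NF-kB word, GGGA and TTCC with 2 free bases between them, stood in 4.24%, 0 of 70 and 1.72%. For the interferon response word, GAAA, 2 free bases and GAAA, the shares were 5.45%, 1.43% and 3.91%. The CREB word TGACGTCA gave 3.64%, 1.43% and 3.47%, the FoxO word GTAAACA, or TGTTTAC, 3.64%, 0 of 70 and 3.08%, and the CLEAR word TCACGTGA 0.606%, 2.86% and 2.05%. Over all 756 risers and 614 fallers with a promoter, whatever their size, the AP-1 word stood in 9.26% and 7.33%, the C/EBP word in 10.6% and 11.1%, the NF-kB word in 3.57% and 1.63%, and the interferon response word in 10.6% and 2.61%. For the CREB word these shares were 3.70% and 2.61%, for the FoxO word 3.57% and 3.26%, and for the CLEAR word 1.59% and 2.12%. Each word was searched on both strands. A match is a description of letters and not a bound site. Of the 14 largest fallers 11 have a promoter in that table. Among these, 3 (Cd101, Arl11 and Kcnj10) hold the C/EBP word, 2 (Phospho1 and Gfra4) the AP-1 word and none the NF-kB word. Of the 14 largest risers 13 have a promoter there, and 4 of these (Ptx3, Saa3, Ptgs2 and Steap4) hold the C/EBP word, none the AP-1 or NF-kB word. The 150 bases before the start of these 4 genes, and of Mmp13 and Olr1 as called genes with the AP-1 word chosen after the matches were seen, are printed 5′ to 3′ on the strand of the gene with the word in capitals. They are Ptx3 at chr3:66219737-66219886 (plus strand), Saa3 at chr7:46715677-46715826 (minus strand), Ptgs2 at chr1:150099881-150100030 (plus strand), Steap4 at chr5:7960322-7960471 (plus strand), Mmp13 at chr9:7272364-7272513 (plus strand) and Olr1 at chr6:129507166-129507315 (minus strand). The word begins 57 bases before the start in Ptx3, 99 in Saa3, 69 in Ptgs2, 87 in Steap4, 35 in Mmp13 and 60 in Olr1. In Ptgs2 it reads as the word on both strands.
Ptx3: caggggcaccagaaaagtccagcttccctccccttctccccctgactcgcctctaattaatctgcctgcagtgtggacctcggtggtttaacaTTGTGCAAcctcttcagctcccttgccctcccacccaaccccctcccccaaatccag
Saa3: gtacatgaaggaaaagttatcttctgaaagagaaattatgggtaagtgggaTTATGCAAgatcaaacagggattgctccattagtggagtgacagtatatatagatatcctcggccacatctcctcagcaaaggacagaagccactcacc
Ptgs2: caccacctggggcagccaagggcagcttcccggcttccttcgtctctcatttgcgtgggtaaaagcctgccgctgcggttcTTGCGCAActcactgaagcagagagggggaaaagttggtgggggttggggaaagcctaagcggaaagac
Steap4: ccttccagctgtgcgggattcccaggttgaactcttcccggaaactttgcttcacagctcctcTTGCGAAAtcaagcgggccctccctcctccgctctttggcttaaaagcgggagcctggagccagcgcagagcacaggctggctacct
Mmp13: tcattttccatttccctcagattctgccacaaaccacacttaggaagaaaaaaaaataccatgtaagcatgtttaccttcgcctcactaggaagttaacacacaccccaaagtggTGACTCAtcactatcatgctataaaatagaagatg
Olr1: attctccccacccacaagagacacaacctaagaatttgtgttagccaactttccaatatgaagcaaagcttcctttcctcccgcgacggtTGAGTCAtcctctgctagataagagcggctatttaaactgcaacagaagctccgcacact

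The largest fall was in Fbxo32, the muscle-atrophy F-box protein of a ubiquitin ligase, which had 163, 106 and 119 in LPS-treated libraries, against 1475, 903 and 1173 in untreated ones. Its change was -3.18 ± 0.20 (adjusted p = 3.43e-05), and in BMDM it was -3.20 ± 0.24. Arg1, the arginase that competes with nitric oxide synthase for arginine, had 135, 124 and 143 in LPS-treated libraries, against 423, 419.9 and 518 in untreated ones (-1.74 ± 0.17, adjusted p = 0.000325). Tmem86a, a lysoplasmalogenase, had 449.8, 524 and 587 in LPS-treated libraries, against 1403, 1622 and 1963 in untreated ones (-1.67 ± 0.13, adjusted p = 0.000106). In each of these genes the highest LPS-treated library lay more than 2-fold under the lowest untreated one. Kcnj10, an inwardly rectifying potassium channel, fell by 1.69 ± 0.23 and Cd101, an immunoglobulin-like surface protein of myeloid cells, by 1.87 ± 0.24. Arl11, a small GTPase of the ARF family, changed by -1.79 ± 0.19 and Phospho1, a phosphatase of phosphocholine, by -1.63 ± 0.23. Gfra4, a receptor of the GDNF family, changed by -1.60 ± 0.28 and Fsd2 by -1.66 ± 0.32. Fbxo32, Arg1, Tmem86a, Kcnj10, Cd101, Arl11 and Phospho1 stayed past the threshold in all 24 refits. Gfra4 and Fsd2, left out by the filter at 100, kept their calls in the other 23 refits.

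Among the remaining large falls, Mterf1b, a mitochondrial transcription terminator with a near-identical copy in the mouse genome, had 8.31, 4.29 and 4.91 in LPS-treated libraries, against 33.0, 19.9 and 21.9 in untreated ones (-1.94 ± 0.33). Enho, the precursor of the peptide adropin, had 21.2, 8.59 and 10.8 in LPS-treated libraries, against 49.1, 39.9 and 42.9 in untreated ones (-1.72 ± 0.37). Chp2, a calcineurin B homologous protein, had 117, 75.1 and 88.3 in LPS-treated libraries, against 275, 220.4 and 318 in untreated ones (-1.53 ± 0.32). All 3 stood below their untreated libraries without overlap, as the rule that chose them requires. Mterf1b, left out by the filter at 100, kept its call in the other 23 refits. Enho was not called with LPS replicates 2 and 3 left out in turn (-1.62 to -1.47, adjusted p of 0.0504 to 0.0558). Chp2 was not called with untreated replicate 3 and LPS replicate 2 left out in turn (-1.41 to -1.39, adjusted p of 0.0527 to 0.0552).

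Prostaglandin genes moved at both ends of the pathway. Of 30 prostaglandin and leukotriene genes 4 rose and 4 fell (2 and 6 with equal totals, 5 and 7 without the Y-linked pair, 2 and 1 resident-only). Beside Ptgs2, the terminal synthase Ptges had 5808, 5264 and 4799 in LPS-treated libraries, against 2134, 2083 and 1227 in untreated ones, with a change of 1.58 ± 0.18 (adjusted p = 0.000775). Hpgd, which breaks prostaglandins down, had 1069.5, 1001 and 1166 in LPS-treated libraries, against 1531, 1385 and 1573 in untreated ones (-0.47 ± 0.09, adjusted p = 0.00841). Ltc4s, which makes leukotriene C4, changed by -0.84 ± 0.18. The others that rose were Ptger4, a receptor of prostaglandin E2, and Ptges2, and the others that fell were Ptger1 and Tbxas1, named after their values were seen. The calls of Ptges and Hpgd held in all 24 refits. Ltc4s was not called in the resident-only fit or with untreated replicate 2 and LPS replicates 2 and 3 left out in turn (-0.84 to -0.79, adjusted p of 0.053 to 0.0605).

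Among other secreted factors the members of a family split. Inhba, the subunit of activin A, had 273, 268 and 235 in LPS-treated libraries, against 82.0, 76.9 and 77.2 in untreated ones (1.70 ± 0.14, adjusted p = 0.000128), and its antagonist Fst changed by 1.38 ± 0.30. Smad6, an inhibitor of BMP signalling, fell by 0.53 ± 0.08. In the TGF-beta, BMP and activin list 5 of 38 rose and 1 fell (3 and 1 with equal totals, 6 and 2 without the Y-linked pair, 1 and 1 resident-only). TNF superfamily genes gave 6 risers and 3 fallers of 32 (5 and 5 with equal totals, 7 and 4 without the Y-linked pair, 3 and 2 resident-only), with Tnfsf15 (1.79 ± 0.31) and Tnfsf9, the ligand of 4-1BB (1.78 ± 0.20), among the risers. Tnfrsf12a, the TWEAK receptor, fell by 0.82 ± 0.09. Of 22 genes of coagulation and plasminogen activation 5 rose and 1 fell (4 and 1 with equal totals, 6 and 1 without the Y-linked pair, 3 and 0 resident-only): F3, tissue factor, rose by 1.51 ± 0.25 and Plat, tissue plasminogen activator, by 1.46 ± 0.33, and F13a1, a factor XIII subunit, changed by -1.16 ± 0.27. Inhba, Smad6, Tnfsf15, Tnfsf9, Tnfrsf12a and F3 stayed past the threshold in all 24 refits. Fst was not called in the resident-only fit or without LPS replicate 2 (1.27 to 1.38, adjusted p of 0.0555 to 0.0602). Plat was not called with array weights or with untreated replicate 3 and LPS replicate 2 left out in turn (1.21 to 1.29, adjusted p of 0.0624 to 0.093). F13a1 was not called in the resident-only fit or with untreated replicates 2 and 3 and LPS replicates 1 and 3 left out in turn (-1.20 to -0.92, adjusted p of 0.0549 to 0.0891).

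Mmp13, a collagenase, had 28591, 18947 and 18706 in LPS-treated libraries, against 14020.5, 8225 and 5369 in untreated ones. Replicate 1 was highest in each group, and the change was 1.34 ± 0.29 (adjusted p = 0.0155), or 1.50 without the Y-linked pair. Among 44 metalloproteinase, ADAM and TIMP genes 4 rose and 3 fell (3 and 4 with equal totals, 6 and 5 without the Y-linked pair, 1 and 0 resident-only), including Timp2 (-0.60 ± 0.12) and Adam33 (-1.19 ± 0.24). Of 25 growth factor genes 4 rose and 2 fell (3 and 3 with equal totals, 6 and 3 without the Y-linked pair, 2 and 0 resident-only), with Igf1 at -0.48 ± 0.10. Serpins had 1 riser, Serpina3i (1.91 ± 0.35), which has near-identical neighbours, and 1 faller, Serpinb8 (-0.89 ± 0.11), of 26 (1 and 2 with equal totals, 2 and 1 without the Y-linked pair, 2 and 1 resident-only). Semaphorins, plexins and neuropilins had no riser and 2 fallers of 28 (0 and 2 with equal totals, 3 and 2 without the Y-linked pair, 0 and 0 resident-only). All 24 refits kept the call of Serpinb8. Serpina3i, left out by the filter at 100, kept its call in the other 23 refits. Mmp13, Adam33 and Igf1 were called in every refit except the resident-only fit (adjusted p of 0.0588 to 0.0881). Timp2 was not called in the resident-only fit or without LPS replicate 2 (-0.60 to -0.55, adjusted p of 0.0531 to 0.0782).

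Chemokine receptors, which set where a cell migrates, moved in both directions. Of 21 tested 4 rose and 5 fell, 42.9% against 12.9% of all genes (4 and 6 with equal totals, 5 and 6 without the Y-linked pair, 3 and 3 resident-only). Ccrl2, a non-signalling receptor that presents chemerin, had 20711, 14589.8 and 15169 in LPS-treated libraries, against 7595, 5702 and 5266 in untreated ones (1.44 ± 0.16, adjusted p = 0.000663). Cxcr5, the receptor of CXCL13 known from B cells, had 819, 666 and 598 in LPS-treated libraries, against 303, 245 and 295 in untreated ones (1.30 ± 0.29, adjusted p = 0.0181). No B lineage marker of 7 was called, and their sums were 4143 to 6025 in LPS-treated and 3096 to 6673 in untreated libraries. Cxcr2, which brings neutrophils out of the marrow, had 584, 435 and 479 in LPS-treated libraries, against 1405, 1431 and 2039 in untreated ones. The lowest untreated library was over 2-fold above the highest LPS-treated one (-1.69 ± 0.34, adjusted p = 0.0108). Of the other 11 neutrophil markers 1 was called, Mmp9 (-0.57 ± 0.15). The uncalled ones went both ways, from -0.45 ± 0.15 for Mmp8 to 0.37 ± 0.33 for Camp, and the median of all 12 was 0.0025. Among the uncalled, S100a8 (0.31 ± 0.19) stood at 66246 to 67259 in LPS-treated and 39688 to 67506 in untreated libraries. Ccr2, the receptor of monocyte chemoattractant proteins, had 115, 120.2 and 100.1 in LPS-treated libraries, against 171, 291 and 369 in untreated ones (-1.24 ± 0.23, adjusted p = 0.00861). The 4 monocyte markers summed to 12684 to 14990 in LPS-treated and 7764 to 12311 in untreated libraries. Most of that sum is Ly6c2, with 9012 to 11811 and 5307 to 9225 (0.46 ± 0.19, not called). The 2 called monocyte markers, Ccr2 and F13a1, both fell. Ms4a4c, the remaining member, was higher but not called (0.49 ± 0.16, adjusted p = 0.0792). It had 3341, 2720 and 2166 in LPS-treated libraries, against 1884, 2160 and 1757 in untreated ones. Without the Y-linked pair 1 monocyte marker was called higher and 2 lower. Ccr7 also rose, and Cxcr3, Cx3cr1 and Cxcr4, the receptor that holds cells in the marrow, fell. Except for Cxcr3 these were named after their values were seen. The calls of Ccrl2 and Cxcr2 held in all 24 refits. Ccr2 lost its call in the resident-only fit (adjusted p = 0.0644) and in no other refit. Cxcr5 was not called with array weights or with untreated replicate 2 and LPS replicates 1 and 2 left out in turn (1.17 to 1.35, adjusted p of 0.0509 to 0.0581). Mmp9 was not called with no variance trend, with array weights, in the resident-only fit or with untreated replicate 3, LPS replicates 2 and 3 and BMDM untreated replicates 1 and 2 left out in turn (-0.58 to -0.41, adjusted p of 0.0526 to 0.121). Cxcr3 was not called in the resident-only fit or with untreated replicate 3 and LPS replicate 2 left out in turn (-1.25 to -0.99, adjusted p of 0.075 to 0.0819).

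Adenosine receptors rose together with a fall of an enzyme that makes adenosine. All 4 adenosine receptor genes rose, although Adora1 and Adora2b were named after their values were seen. Adora2a, the receptor that raises cAMP in activated macrophages, had 3130.1, 2420.2 and 2082 in LPS-treated libraries, against 1262, 1138 and 696 in untreated ones (1.33 ± 0.22, adjusted p = 0.0042). Adora3 changed by 1.17 ± 0.31, and Adora1 did not exceed 23 normalised reads in a library. Nt5e (CD73), which turns AMP into adenosine, had 57.3, 65.5 and 66.7 in LPS-treated libraries, against 127, 204 and 241 in untreated ones (-1.53 ± 0.26, adjusted p = 0.00475). P2rx7, the ATP-gated channel upstream of the NLRP3 inflammasome, changed by -0.77 ± 0.14. In the list of 25, 4 rose and 4 fell (3 and 7 with equal totals, 5 and 5 without the Y-linked pair, 2 and 1 resident-only), the other fallers being the nucleotidases Entpd6 and Entpd7. Adora2a and Nt5e stayed past the threshold in all 24 refits. P2rx7 was called in every refit except the resident-only fit (adjusted p = 0.0635). Adora3 was not called with equal library totals, with no variance trend, in the resident-only fit or with LPS replicates 2 and 3 and each BMDM library left out in turn (0.95 to 1.24, adjusted p of 0.0501 to 0.125).

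**Figure D3:**
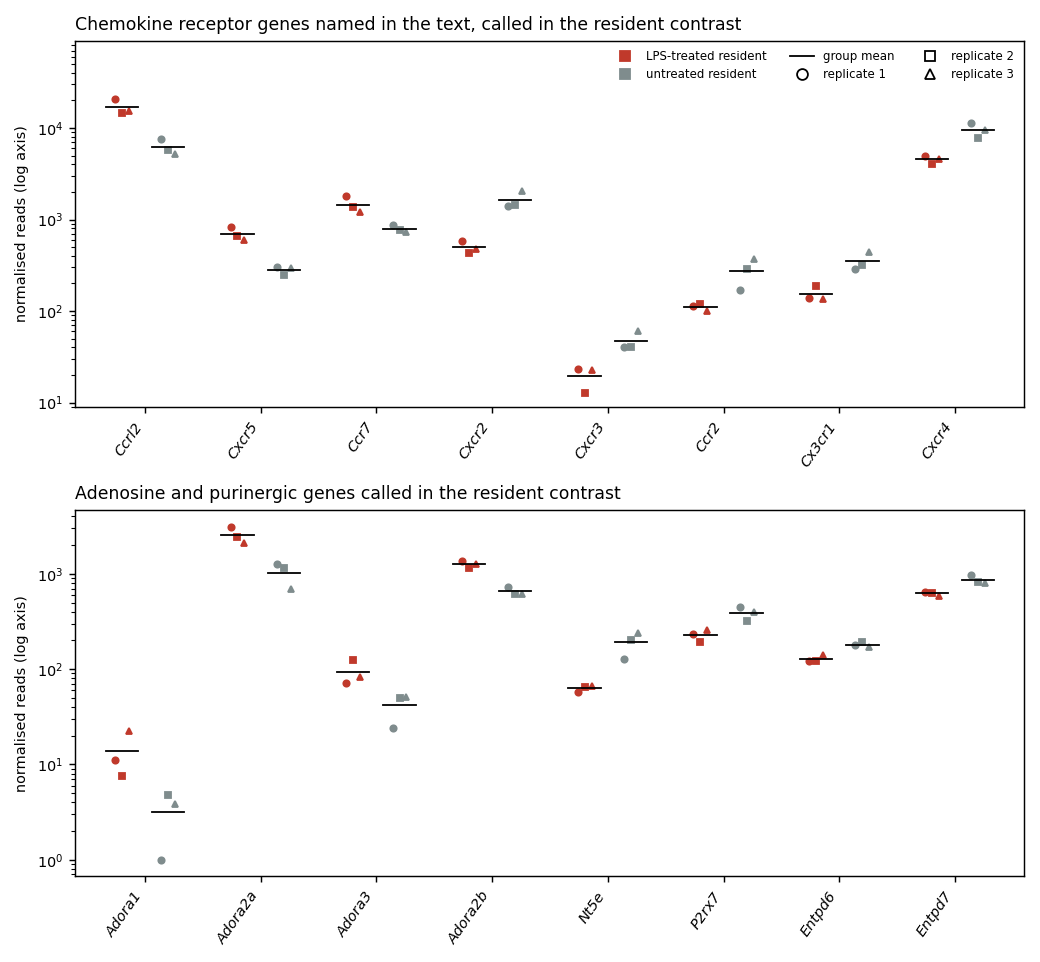
Normalised reads (log axis) of 8 called chemokine receptor genes and the 8 called adenosine and purinergic genes, 1 point per resident library with LPS-treated in red on the left of each pair and untreated in grey. Risers are on the left of each panel and fallers on the right. No gene shows overlap between the groups, which is so for 1006 of all 1013 risers and 761 of all 766 fallers.

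Pattern recognition and Fc receptors also split. Fpr1, the formyl peptide receptor, had 6038, 5594 and 5239 in LPS-treated libraries, against 1619.6, 1455 and 1697 in untreated ones (1.82 ± 0.15, adjusted p = 0.000125), and of 63 lipid, metabolite and orphan G protein-coupled receptors 9 rose and 4 fell (7 and 5 with equal totals, 7 and 7 without the Y-linked pair, 4 and 2 resident-only), with Gpr180 (-0.79 ± 0.15) and Gpr146 (-0.65 ± 0.10) among the fallers. Of 30 C-type lectin genes 6 rose and 4 fell (3 and 7 with equal totals, 5 and 7 without the Y-linked pair, 3 and 1 resident-only). Clec4e (Mincle), which binds mycobacterial cord factor, had 28799.6, 19896 and 19438 in LPS-treated libraries, against 10763, 8259 and 8411 in untreated ones (1.30 ± 0.15, adjusted p = 0.00093), and Olr1, the receptor of oxidised low density lipoprotein, rose by 1.07 ± 0.11. Clec4b1 changed by -0.73 ± 0.16, in a family of neighbouring genes with similar sequence. Of 13 Fc receptor genes 4 rose and 2 fell (2 and 2 with equal totals, 3 and 2 without the Y-linked pair, 2 and 1 resident-only): the low-affinity IgE receptor Fcer2a changed by 1.54 ± 0.36, and the high-affinity IgG receptor Fcgr1 by -0.57 ± 0.09. All 24 refits kept the calls of Fpr1, Gpr146, Clec4e, Olr1 and Fcgr1. Gpr180 lost its call in the resident-only fit (adjusted p = 0.0607) and in no other refit. Clec4b1 was not called in the resident-only fit or with untreated replicate 3 and LPS replicate 2 left out in turn (-0.73 to -0.67, adjusted p of 0.0617 to 0.0702). Fcer2a was not called with a pseudocount of 0.1, with array weights, without the Y-linked pair or with untreated replicate 2 and LPS replicate 2 left out in turn (1.46 to 1.63, adjusted p of 0.0536 to 0.078).

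Paired activating and inhibitory receptors and costimulatory ligands held risers and fallers. Among 41 TREM, CD300, PIR, SIRP and Siglec genes 6 rose and 3 fell (4 and 6 with equal totals, 5 and 5 without the Y-linked pair, 2 and 0 resident-only). Siglece, an inhibitory receptor for sialic acid, rose by 0.94 ± 0.12, Cd300e changed by 1.38 ± 0.26, and Siglec1 (CD169), a defining marker of marrow-resident macrophages, had 2397, 2700.3 and 3383 in LPS-treated libraries, against 4163, 3888 and 4608 in untreated ones (-0.59 ± 0.12). Of 28 costimulatory and checkpoint genes 8 rose and 2 fell (6 and 3 with equal totals, 14 and 2 without the Y-linked pair, 2 and 2 resident-only). Cd69 had a change of 1.48 ± 0.12 and Cd200 of 1.40 ± 0.28. Vsir (VISTA) and Cd84 fell by 0.57 ± 0.08 and 0.44 ± 0.07. Of 61 cytokine and growth factor receptor genes 7 rose and 2 fell (5 and 4 with equal totals, 10 and 3 without the Y-linked pair, 4 and 0 resident-only), including Il2ra (1.43 ± 0.25) and, falling, Ifngr1 (-0.33 ± 0.06). The same list holds Il1rn, which encodes not a receptor but the secreted interleukin 1 receptor antagonist (1.50 ± 0.27). The calls of Siglece, Cd69, Vsir, Cd84 and Il2ra held in all 24 refits. Cd300e, Siglec1, Cd200, Ifngr1 and Il1rn were called in every refit except the resident-only fit (adjusted p of 0.0506 to 0.0705).

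Tetraspanins, scaffold proteins of membrane domains, had fallers and no risers. Of 25 tested 5 fell, 20.0% against 5.57% of all genes (0 and 8 with equal totals, 0 and 4 without the Y-linked pair, 0 and 3 resident-only). Tspan4, known from the migrasomes that moving cells leave behind, had 1267, 1204 and 1308 in LPS-treated libraries, against 2275, 2116 and 2272 in untreated ones (-0.82 ± 0.06, adjusted p = 0.000104). Its libraries agreed closely within each group. Tspan10 changed by -1.18 ± 0.22. The others, Tspan14, Cd81 and Cd151, were named after their values were seen. Among 18 scavenger receptor genes 1 rose and 2 fell (1 and 5 with equal totals, 2 and 4 without the Y-linked pair, 0 and 0 resident-only): Cd5l, a secreted macrophage protein, changed by -0.67 ± 0.13, Scarb1 by -0.47 ± 0.11 and the riser Msr1 by 0.49 ± 0.12. Integrins gave 2 risers and 1 faller of 27 (1 and 2 with equal totals, 4 and 3 without the Y-linked pair, 0 and 0 resident-only), and other adhesion genes 2 risers of 21 (2 and 1 with equal totals, 3 and 0 without the Y-linked pair, 0 and 0 resident-only), among them Icam1 (0.61 ± 0.12). Tspan4 and Tspan10 stayed past the threshold in all 24 refits. Cd5l and Icam1 lost their calls in the resident-only fit (adjusted p of 0.0682 to 0.0887) and in no other refit. Scarb1 was not called with no variance trend, in the resident-only fit or with LPS replicates 2 and 3 left out in turn (-0.47 to -0.43, adjusted p of 0.0591 to 0.108). Msr1 was not called with no variance trend, in the resident-only fit or with untreated replicates 2 and 3, LPS replicate 2 and each BMDM library left out in turn (0.46 to 0.52, adjusted p of 0.0522 to 0.123).

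Feedback regulators of Toll-like receptor signalling held many risers. Of 40 TRAF, Pellino, IAP and deubiquitinase genes 17 rose and 1 fell (14 and 3 with equal totals, 19 and 1 without the Y-linked pair, 8 and 0 resident-only), with a median of 0.26. Tnip3, a partner of A20, had 1791, 1646 and 1320.0 in LPS-treated libraries, against 463, 389 and 338 in untreated ones (2.00 ± 0.13, adjusted p = 4.65e-05). Tnfaip3, the A20 gene itself, had 71362, 65599.5 and 75969 in LPS-treated libraries, against 33525, 23979 and 20929.5 in untreated ones (1.47 ± 0.15, adjusted p = 0.000471). Dual-specificity phosphatases, which switch MAP kinases off, gave 5 risers and 1 faller of 21 (4 and 3 with equal totals, 7 and 3 without the Y-linked pair, 4 and 0 resident-only). Dusp16, a phosphatase of JNK, had 3730.4, 3647 and 3478 in LPS-treated libraries, against 1386, 1272 and 1225 in untreated ones, with a spread inside each group far under the gap between them (1.48 ± 0.08, adjusted p = 1.68e-05). Dusp2 rose by 1.26 ± 0.12, and Dusp6, a phosphatase of ERK, fell by 0.71 ± 0.14. Rgs2, a brake on Gq signalling, had 1436, 1419 and 1578 in LPS-treated libraries, against 3065, 2892 and 3307 in untreated ones (-1.06 ± 0.07, adjusted p = 5.09e-05), and Rgs9 changed by 1.16 ± 0.28, 1 riser and 1 faller of 13 RGS genes (0 and 1 with equal totals, 1 and 2 without the Y-linked pair, 0 and 1 resident-only). Pde4b, the cAMP phosphodiesterase of activated leukocytes, rose by 0.88 ± 0.13, the riser of 31 cAMP pathway genes with 1 faller, Adcy3 (-0.79 ± 0.19). Under the other settings that list gave 1 and 2 with equal totals, 2 and 1 without the Y-linked pair, 1 and 0 resident-only. All 24 refits kept the calls of Tnip3, Tnfaip3, Dusp16, Dusp2, Rgs2 and Pde4b. Dusp6 was called in every refit except the resident-only fit (adjusted p = 0.0677). Rgs9 was not called with equal library totals, in the resident-only fit or with LPS replicates 2 and 3 left out in turn (1.00 to 1.16, adjusted p of 0.0538 to 0.102). Adcy3 was not called with no variance trend, in the resident-only fit or with LPS replicates 2 and 3 left out in turn (-0.79 to -0.70, adjusted p of 0.053 to 0.0998).

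Of 49 TRIM genes, many of them interferon-inducible, 12 rose and 2 fell (8 and 4 with equal totals, 13 and 3 without the Y-linked pair, 6 and 0 resident-only), with Trim56 (0.88 ± 0.08) and Trim36 (1.08 ± 0.16) among the risers. Rnd1, a small GTPase that loosens adhesion, had 3718, 2761 and 2875 in LPS-treated libraries, against 1079, 890.1 and 787 in untreated ones (1.76 ± 0.20, adjusted p = 0.000663), and Rnd3 of the same subfamily changed by 1.00 ± 0.17. Rab GTPases had 2 risers and 3 fallers of 50 (2 and 6 with equal totals, 4 and 4 without the Y-linked pair, 0 and 1 resident-only), among them Rab7b (-1.01 ± 0.13), which acts in Toll-like receptor degradation. BCL2 family and death receptor genes had 6 risers and 2 fallers of 36 (7 and 3 with equal totals, 12 and 2 without the Y-linked pair, 1 and 0 resident-only). Bcl2l11 (BIM), a proapoptotic member that is also in the FoxO list, rose by 0.88 ± 0.12, while Fbxo32 of that list fell. Among 34 PI3K, insulin and mTOR genes 5 rose and 2 fell (2 and 4 with equal totals, 8 and 5 without the Y-linked pair, 0 and 1 resident-only), with the PI3K subunit Pik3r2 at -0.80 ± 0.11. The calls of Trim56, Trim36, Rnd1, Rab7b, Bcl2l11 and Pik3r2 held in all 24 refits. Rnd3 lost its call in the resident-only fit (adjusted p = 0.0526) and in no other refit.

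Transcription factor families held both risers and fallers. IRF and STAT genes had 8 risers and no faller of 16 (3 and 0 with equal totals, 9 and 1 without the Y-linked pair, 3 and 0 resident-only), with a median of 0.27. Irf4, known from alternatively activated macrophages and plasma cells, had 2135, 2313 and 2369 in LPS-treated libraries, against 1102, 1085 and 1146 in untreated ones (1.03 ± 0.08, adjusted p = 0.000117), and Stat5a rose by 1.18 ± 0.17. ETS, RUNX, HIVEP and other lineage factors had 13 risers and 2 fallers of 46 (8 and 4 with equal totals, 18 and 2 without the Y-linked pair, 6 and 0 resident-only), among them Ets2 (0.84 ± 0.10). Nuclear receptors had 2 risers and 6 fallers of 26 (2 and 10 with equal totals, 5 and 6 without the Y-linked pair, 2 and 4 resident-only), with a median of -0.13. Nr4a3 had 1844, 1836 and 1751 in LPS-treated libraries, against 432, 567 and 532 in untreated ones (1.83 ± 0.12, adjusted p = 4.81e-05). Rxra, the common partner of the lipid-sensing receptors, had 1839, 1384 and 1867 in LPS-treated libraries, against 3349, 2524 and 2948 in untreated ones (-0.80 ± 0.13, adjusted p = 0.00428), and the vitamin D receptor gene Vdr changed by -0.88 ± 0.18. Nr2f6, Pparg, Nr1d2 and Rxrb also fell. Of these, Nr1d2 (-0.44 ± 0.13) lost its call in 15 refits (-0.49 to -0.30, adjusted p of 0.0504 to 0.163). Among those were the refits without the Y-linked pair, untreated replicate 1 or 3, any LPS replicate or any BMDM library. Irf4, Stat5a, Ets2, Nr4a3 and Rxra stayed past the threshold in all 24 refits. Vdr was called in every refit except the resident-only fit (adjusted p = 0.0543). Nr2f6, Pparg and Rxrb were named after their values were seen.

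AP-1, CREB and C/EBP factors split, with 5 risers and 5 fallers of 33 (5 and 6 with equal totals, 9 and 4 without the Y-linked pair, 4 and 2 resident-only). Batf, a partner of JUN and IRF4, had 3329.6, 2647 and 2645 in LPS-treated libraries, against 1287, 1111 and 853 in untreated ones (1.42 ± 0.15, adjusted p = 0.000457). Cebpa, a driver of myeloid differentiation, had 1335, 817 and 865 in LPS-treated libraries, against 2521, 1801 and 2538 in untreated ones (-1.20 ± 0.19, adjusted p = 0.00334). Cebpd, induced in acute phase responses, rose by 0.62 ± 0.11. Of 38 Kruppel-like, EGR, Myc network and bHLH genes 5 rose and 6 fell (2 and 9 with equal totals, 8 and 7 without the Y-linked pair, 1 and 2 resident-only). Mxd1, a repressor that competes with Myc for Max, rose by 0.55 ± 0.08, Mnt of the same network changed by -0.70 ± 0.13 and Klf4 by -0.71 ± 0.13. Of 20 clock genes 1 rose and 3 fell (1 and 5 with equal totals, 1 and 2 without the Y-linked pair, 1 and 0 resident-only), the riser being Cry1 (0.62 ± 0.09) and the fallers including Tef (-0.87 ± 0.20). Of 18 glucocorticoid response genes 2 rose and 4 fell (2 and 5 with equal totals, 4 and 5 without the Y-linked pair, 2 and 0 resident-only), with Errfi1 at 1.21 ± 0.14 and Glul at -0.64 ± 0.13. All 24 refits kept the calls of Batf, Cebpa, Cebpd, Mxd1, Cry1 and Errfi1. Mnt, Klf4 and Glul lost their calls in the resident-only fit (adjusted p of 0.0526 to 0.0828) and in no other refit. Tef was not called in the resident-only fit or with untreated replicate 3 and LPS replicate 2 left out in turn (-0.87 to -0.68, adjusted p of 0.0536 to 0.0939).

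Regulators of mRNA decay rose with no faller. Of 41 genes 11 rose, 26.8% against 7.36% of all genes (8 and 1 with equal totals, 16 and 1 without the Y-linked pair, 3 and 0 resident-only), with a median of 0.16. Zc3h12c, of the Regnase family of RNases, had 2761, 2528 and 2981 in LPS-treated libraries, against 1989.7, 1443 and 1476 in untreated ones (0.76 ± 0.12, adjusted p = 0.00334). Zc3h12a, which encodes Regnase-1, changed by 0.75 ± 0.15 and Zfp36, which encodes tristetraprolin, by 0.70 ± 0.13; both degrade cytokine mRNAs. Among 56 histone and DNA modifying enzymes 8 rose and 2 fell (5 and 5 with equal totals, 13 and 3 without the Y-linked pair, 3 and 0 resident-only). Tet2, a DNA demethylase, had 1460.2, 1695 and 1656 in LPS-treated libraries, against 834, 735 and 806 in untreated ones (1.02 ± 0.08, adjusted p = 0.000106), and Kdm6b, a histone H3 lysine 27 demethylase, changed by 0.57 ± 0.12. The 328 genes named Zfp gave 10 risers and 5 fallers, 4.57% in all (5 and 15 with equal totals, 18 and 10 without the Y-linked pair, 2 and 0 resident-only), below the 12.9% of all genes. Mir155hg, the host transcript of miR-155, had 1485, 1353 and 1134 in LPS-treated libraries, against 454, 413 and 260.0 in untreated ones (1.85 ± 0.24, adjusted p = 0.00137), the riser of 23 microRNA and snoRNA host transcripts with 2 fallers (1 and 2 with equal totals, 1 and 2 without the Y-linked pair, 1 and 0 resident-only). The calls of Zc3h12c, Tet2 and Mir155hg held in all 24 refits. Zc3h12a, Zfp36 and Kdm6b were called in every refit except the resident-only fit (adjusted p of 0.0636 to 0.0689).

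Metabolic enzymes held risers and fallers. Irg1, which makes itaconate, had 76283, 59723 and 62000.0 in LPS-treated libraries, against 26683, 23618 and 22494 in untreated ones (1.44 ± 0.12, adjusted p = 0.000117), and Nos2, the inducible nitric oxide synthase, changed by 1.97 ± 0.47. Of 19 arginine, nitric oxide and itaconate genes 2 rose and 1 fell (2 and 4 with equal totals, 3 and 2 without the Y-linked pair, 1 and 1 resident-only), the faller being Arg1. Lipg, endothelial lipase, had 1769, 2653 and 2305 in LPS-treated libraries, against 379, 759 and 543 in untreated ones (2.04 ± 0.25, adjusted p = 0.00104). Acsl1, which activates long-chain fatty acids, rose by 1.01 ± 0.10, and Lipa, the lysosomal acid lipase, changed by -0.68 ± 0.15. In the list of 56 lipid genes 8 rose and 6 fell (4 and 15 with equal totals, 10 and 11 without the Y-linked pair, 4 and 2 resident-only). None of 21 aminoacyl-tRNA synthetase genes was called by limma with the deposited scaling (0 and 2 with equal totals, 3 and 1 without the Y-linked pair, 0 and 0 resident-only). Autophagy genes had 1 riser and 4 fallers of 32 (1 and 13 with equal totals, 1 and 9 without the Y-linked pair, 1 and 0 resident-only), the riser being Optn (0.57 ± 0.07) and the fallers including Tfeb (-0.51 ± 0.12), the lysosome regulator, with a median of -0.15. Irg1, Lipg, Acsl1 and Optn stayed past the threshold in all 24 refits. Nos2 was not called with no variance trend, with array weights, in the resident-only fit or with LPS replicates 1 and 2 left out in turn (1.82 to 1.98, adjusted p of 0.0516 to 0.0705). Lipa was not called in the resident-only fit or without LPS replicate 2 (-0.68 to -0.59, adjusted p of 0.0624 to 0.083). Tfeb was not called with no variance trend, in the resident-only fit or with untreated replicate 3 and LPS replicate 2 left out in turn (-0.51 to -0.38, adjusted p of 0.0551 to 0.104).

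Transporters changed in both directions, with 18 risers and 22 fallers among 251 solute carriers (15 and 42 with equal totals, 25 and 25 without the Y-linked pair, 7 and 7 resident-only), 15.9% against 12.9% of all genes. Slc7a11, the cystine importer for glutathione synthesis, had 21433, 16084 and 17017 in LPS-treated libraries, against 5598, 5129.5 and 6977 in untreated ones (1.62 ± 0.13, adjusted p = 0.000117). Of 28 amino acid transporters 4 rose and 3 fell (4 and 6 with equal totals, 4 and 2 without the Y-linked pair, 1 and 0 resident-only). Slc7a2, which brings arginine in, changed by 1.15 ± 0.21, and Slco3a1, an organic anion transporter, rose by 1.17 ± 0.11. Slc46a1, the proton-coupled folate transporter that also carries heme, had 36.9, 46.1 and 36.3 in LPS-treated libraries, against 93.6, 86.4 and 107 in untreated ones (-1.25 ± 0.15, adjusted p = 0.00104). Slco2b1, an organic anion transporter, fell by 1.14 ± 0.14. The ferroportin gene Slc40a1 and the heme exporter of lysosomes Slc48a1 were also among the fallers, named after their values were seen. Of 22 zinc transporter and metallothionein genes 2 rose and 2 fell (1 and 4 with equal totals, 4 and 1 without the Y-linked pair, 0 and 0 resident-only), with Slc39a14, which imports zinc and iron, at 0.91 ± 0.17. Channels gave 6 risers and 3 fallers of 66 (4 and 7 with equal totals, 7 and 3 without the Y-linked pair, 3 and 1 resident-only), among them the potassium channel gene Kcna3 (0.93 ± 0.14) and Cacnb3 (1.20 ± 0.19). Cytoskeletal genes had 5 risers and 2 fallers of 41 (3 and 3 with equal totals, 10 and 3 without the Y-linked pair, 3 and 0 resident-only), with Marcksl1 at 1.01 ± 0.09, and surface glycosyltransferases 4 and 7 of 56 (2 and 12 with equal totals, 8 and 9 without the Y-linked pair, 0 and 0 resident-only), with St3gal1 at 0.75 ± 0.13. Called were 18.2% of the zinc list, 13.6% of channels, 17.1% of cytoskeletal genes and 19.6% of glycosyltransferases, beside 12.9% of all genes. All 24 refits kept the calls of Slc7a11, Slco3a1, Slc46a1, Slco2b1, Kcna3, Cacnb3 and Marcksl1. Slc7a2, Slc39a14 and St3gal1 were called in every refit except the resident-only fit (adjusted p of 0.0504 to 0.0616).

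**Figure D4:**
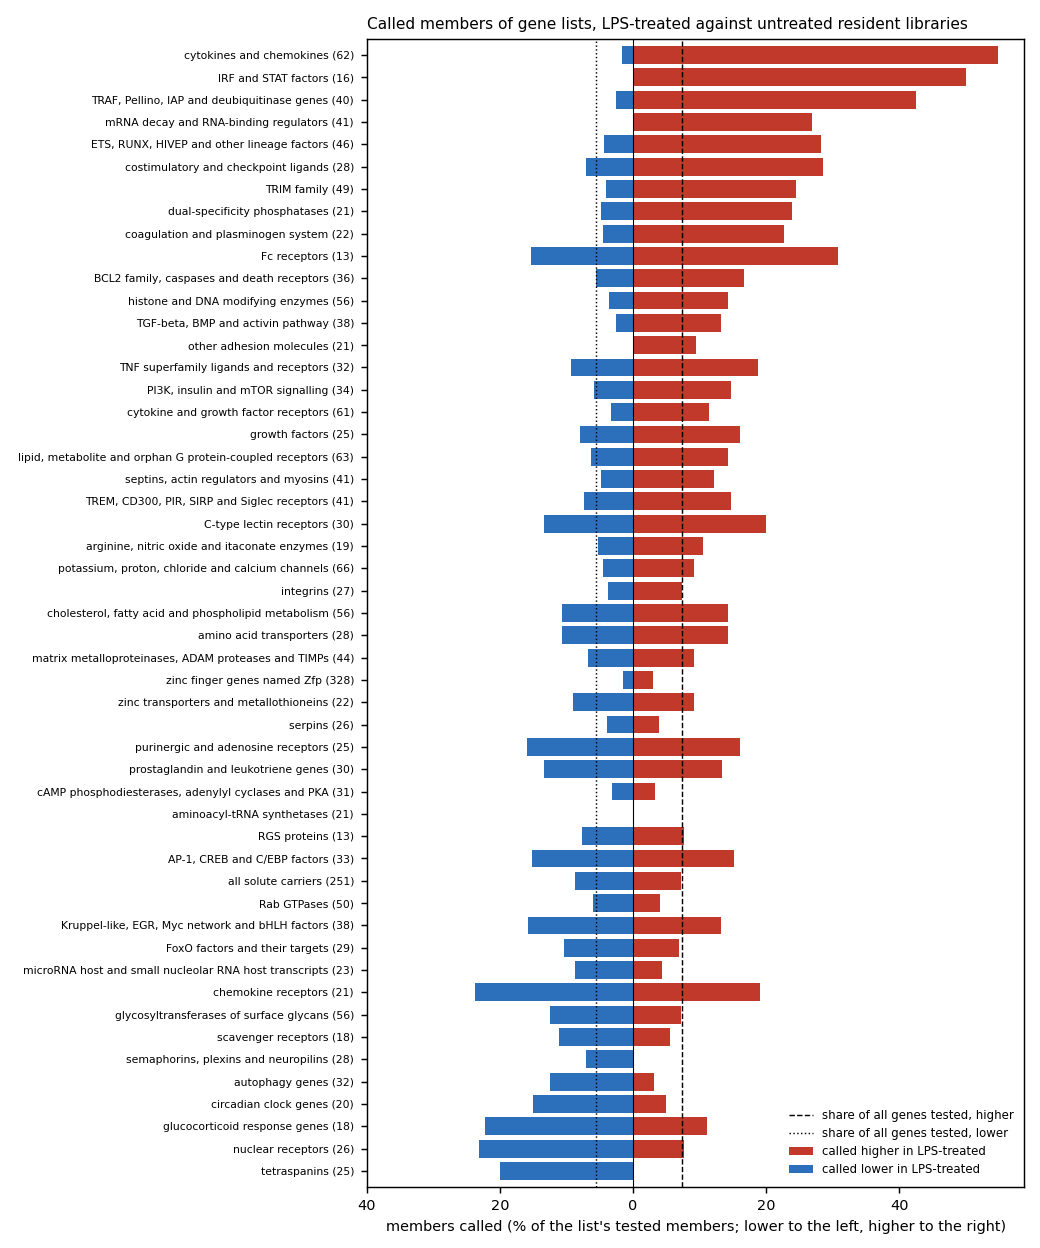
Share of the tested members of 51 gene lists called higher (red, to the right) or lower (blue, to the left) in LPS-treated resident libraries, with the number tested in brackets and dashed and dotted lines at the shares of all genes (7.36% and 5.57%). Cytokines, IRF and STAT factors and TRAF-related genes reach furthest to the right, and chemokine receptors, nuclear receptors and glucocorticoid response genes furthest to the left.

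The difference of the responses, resident minus BMDM, was tested in the same model and was called for 5752 genes, 41.8% of those tested (19.0% higher and 22.8% lower). Of these calls 45.5% were higher, against 76.8% with equal library totals and 56.9% with quantile normalization, which moved the median difference of all genes to 0.52 and 0.14 on the log2 scale. Over the 1013 risers the median change was 0.56 in resident libraries and 2.04 in BMDM, and over the 766 fallers -0.50 and -0.84. A called difference in the direction of the resident change, which shares its libraries, was found for 65 of the 1013 risers and 82 of the 766 fallers. Of the risers 29 fell in BMDM, and of the fallers 33 rose in BMDM. Nr4a1, an immediate-early nuclear receptor of monocyte and macrophage maintenance, had 3150.4, 3409.7 and 3546 in LPS-treated resident libraries, against 2230.5, 2285 and 2568 in untreated ones. Its change was 0.51 ± 0.09 there and -2.63 ± 0.11 in BMDM, a difference of 3.15 ± 0.14 (adjusted p = 5.82e-08). Gpr183, the oxysterol receptor that positions immune cells, had 134, 157 and 145 in LPS-treated libraries, against 59.8, 94.0 and 91.4 in untreated ones. It changed by 0.85 ± 0.18, and by -3.82 ± 0.22 in BMDM, a difference of 4.66 ± 0.29 (adjusted p = 6.09e-07). Thbs1, thrombospondin 1, had 21639, 30240.0 and 26819.6 in LPS-treated libraries, against 8392, 17537 and 14890.3 in untreated ones, with changes of 1.00 ± 0.23 and, in BMDM, -2.83 ± 0.28. The platelet and megakaryocyte markers, cells that also hold Thbs1, summed to 16145 to 42885 in LPS-treated and 12150 to 39513 in untreated libraries, with none of 6 called. Enc1, an actin-binding protein of the kelch family, changed by 0.96 ± 0.18 and by -2.15 ± 0.22 in BMDM. Smaller resident rises against a fall in BMDM were those of Myc (0.46 ± 0.13 against -2.68 ± 0.16), the potassium channel gene Kcnj2 (0.61 ± 0.15 against -2.28 ± 0.19) and Iqsec1, an activator of ARF6 (0.39 ± 0.11 against -2.49 ± 0.14). Grin2d, a glutamate receptor subunit, changed by 1.48 ± 0.39, and its BMDM change of -0.95 ± 0.48 was not called. The call of Nr4a1 held in all 24 refits. Enc1 lost its call in the resident-only fit (adjusted p = 0.0529) and in no other refit. Gpr183 was not called with equal library totals, in the resident-only fit or without LPS replicate 2 (0.73 to 0.85, adjusted p of 0.0514 to 0.0877). Thbs1 was not called with quantile normalization, with equal library totals, in the resident-only fit or with LPS replicates 2 and 3 left out in turn (0.84 to 1.00, adjusted p of 0.0531 to 0.104). The resident calls of Myc, Kcnj2, Iqsec1 and Grin2d each ended in 10 to 14 refits: all 4 without any 1 LPS replicate (adjusted p of 0.0501 to 0.127) and without either untreated BMDM library (0.0556 to 0.0768), some of them also without an LPS-treated BMDM library (0.0504 to 0.0764) or an untreated replicate (0.0571 to 0.129). All 4 also ended in the resident-only fit (0.0852 to 0.15). Without the Y-linked pair Kcnj2 (0.57, adjusted p = 0.0582), Iqsec1 (0.37, adjusted p = 0.0763) and Grin2d (1.31, adjusted p = 0.0659) were not called. With no variance trend Myc (0.0856), Kcnj2 (0.0518) and Iqsec1 (0.0881) were not called, nor was Grin2d with array weights (0.0711). With equal library totals Myc (0.34, adjusted p = 0.201), Iqsec1 (0.27, adjusted p = 0.217) and Kcnj2 (0.49, adjusted p = 0.0626) were not called. With quantile normalization Myc (0.42, adjusted p = 0.0749) and Iqsec1 (0.34, adjusted p = 0.096) were not called. The difference itself was called in all 23 refits that hold BMDM for 15 of the 16 genes named for it, and for Grin2d in all but that without BMDM LPS replicate 1 (1.95, adjusted p = 0.0503).

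In the other direction, Fcgr1 (CD64), the high-affinity IgG receptor and an interferon-inducible gene, had 2134, 1998 and 1771 in LPS-treated libraries, against 2702, 3279 and 2778 in untreated ones. It fell by 0.57 ± 0.09, while BMDM changed by 2.05 ± 0.11, a difference of -2.62 ± 0.14 (adjusted p = 2.91e-07). Hspa1a, an inducible HSP70 gene with a near-identical neighbour, had 1952, 3539 and 2882 in LPS-treated libraries, against 4922, 7179 and 6687 in untreated ones. It fell by 1.19 ± 0.23 and changed by 1.59 ± 0.29 in BMDM, a difference of -2.78 ± 0.37 (adjusted p = 0.000182). Maf, a factor of resident macrophage identity, changed by -0.44 ± 0.10 and by 1.61 ± 0.12 in BMDM, and Naaa, a lysosomal amidase, by -0.47 ± 0.11 and 2.01 ± 0.13. Cxcr3 had 23.1, 12.9 and 22.6 in LPS-treated libraries, against 40.1, 40.8 and 60.0 in untreated ones, and its BMDM change of 0.83 ± 0.37 was not called. Ly6e, an interferon-inducible surface protein, changed by -0.31 ± 0.08 and by 2.40 ± 0.10 in BMDM, Samd4, an RNA-binding repressor of translation, by -0.78 ± 0.22 and 1.23 ± 0.27, and Sema4f by -1.16 ± 0.30 and 2.02 ± 0.37. Fcgr1 and Hspa1a stayed past the threshold in all 24 refits. Of the other fallers, Maf and Naaa were not called in the resident-only fit (adjusted p of 0.0813 and 0.097), without LPS replicate 2 (0.0587 to 0.0711) or without LPS replicate 3 (0.0505 to 0.0613). Ly6e, Samd4 and Sema4f each lost their calls in 9 to 12 refits, all 3 without LPS replicate 3 (0.0601 to 0.114) and without untreated replicate 1 (0.0548 to 0.0752), and some of them without any other single library (0.0512 to 0.144). All 3 also lost them in the resident-only fit (0.0554 to 0.157). Without the Y-linked pair Samd4 (-0.75, adjusted p = 0.0987) and Sema4f (-0.92, adjusted p = 0.0862) were not called. The same 2 were not called with array weights (0.134 and 0.0793), nor were Ly6e (0.0666) and Samd4 (0.053) with no variance trend.

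**Figure D5:**
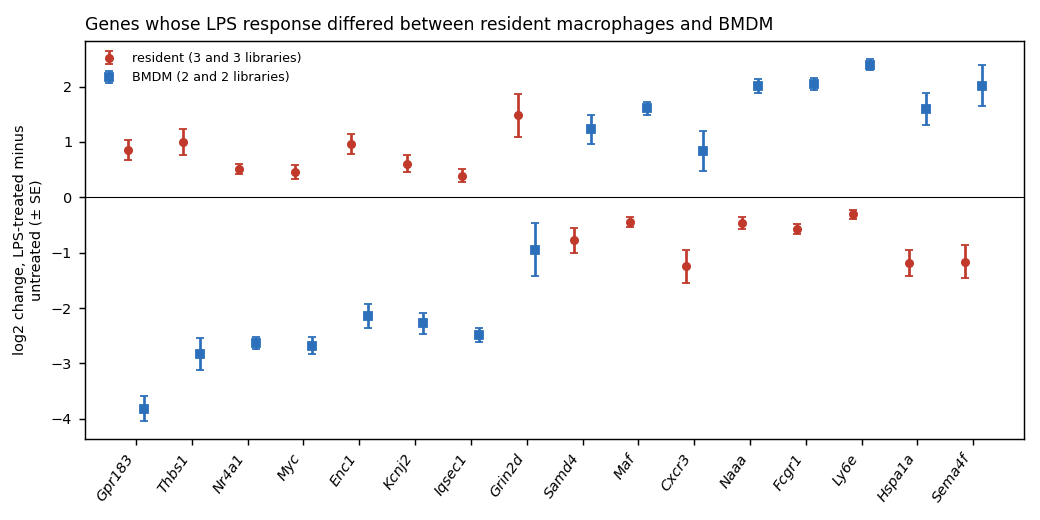
Log2 change ± SE of LPS-treated against untreated libraries in resident macrophages (red circles) and BMDM (blue squares) for the 16 genes with the largest difference of responses in the direction of the resident change. In 8 genes the resident points lie above 0 and the BMDM points below it, and in the other 8 the reverse; the BMDM changes of Grin2d and Cxcr3 were not called.

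Of the identity genes of the fraction, Vcam1, Spic and Adgre1 had changes of -0.01 ± 0.14, 0.08 ± 0.14 and -0.01 ± 0.20, and Cd163 -0.49 ± 0.24 (adjusted p of 0.969, 0.783, 0.981 and 0.224). Across the 24 refits the changes of these 4 genes ran from -0.45 to 0.15, -0.09 to 0.26, -0.16 to 0.24 and -0.71 to -0.20, so those of Vcam1, Spic and Adgre1 took both signs. Of the 10 macrophage markers 3 fell, Siglec1 and Fcgr1 among them, and none rose, and their median of -0.31 had the same sign with equal totals and with quantile normalization. Summed over the list, macrophage markers stood at 133849 to 164432 in LPS-treated and 142456 to 205659 in untreated libraries.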

How the data were processed

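Total RNA of 10 libraries was sequenced. Per the submitters' processing notes, reads were aligned with HISAT 0.1.7 to mm10; the counting tool is not given in the sources used here. The deposited table holds a signal per gene and library, named normalised reads here: values that the authors scaled by library and floored at 1. Below 1000 reads, 100% of the values above the floor were whole multiples of 1 step per library (tolerance 0.02 reads), which gave the recovered reads, 27.9 to 35.1 M per resident library. The scaling is kept, and each of the 13809 genes reaches at least 10.1 in some library, so lower genes were filtered upstream. Tests covered the 13755 genes that reach 10 in 2 or more libraries, leaving out 54.

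Groups come from the source labels. Changes are on the log2(value + 1) scale, which understates those of low genes, and were tested with limma 3.58.1 (R 4.3.3, 4 group means, variance trend, 6 residual degrees of freedom, Benjamini-Hochberg adjustment) after a check on simulated data. The difference of responses is the interaction in that model. The rule for named genes took the 14 largest rises and falls outside cytokines, up to 2 of each direction per list, the 8 largest differences in each direction and 7 fixed genes; it required no overlap between groups and a mean of 20 or more in the higher group. Members and lists were chosen with earlier results of these data known. Promoters are RefSeq's, of GRCm38.p6. The table gives 16 genes in 7 sets identical values. Figures were drawn with matplotlib 3.10.9. Some genes are not reported here.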

Additional observations from a re-analysis of the deposited data

Results flagged for a closer look

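For 16 called genes outside the cytokine list the LPS response of resident macrophages differed from that of BMDM in the direction of the resident change, by limma's test of the difference (resident minus BMDM, log2). Every other value here is that difference, and the adjusted p-values were under 0.05 by the rule that chose the genes. Among the risers it was 4.66 for Gpr183, 3.83 for Thbs1, 3.15 for Nr4a1, 3.14 for Myc, 3.11 for Enc1, 2.89 for Kcnj2, 2.88 for Iqsec1 and 2.42 for Grin2d. Among the fallers it was -3.18 for Sema4f, -2.78 for Hspa1a, -2.70 for Ly6e, -2.62 for Fcgr1, -2.48 for Naaa, -2.08 for Cxcr3, -2.05 for Maf and -2.01 for Samd4. BMDM had 2 libraries per group, and the fractions also differ in how they were obtained and kept, which cannot be told apart from cell identity.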

How the results depend on the processing

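No paired analysis was run, because the labels number the libraries consecutively and name no pairs. The replicate numbers used here follow the order of the libraries. Replicate 1 of each resident group alone carried Y-linked transcripts, and a pairing taken from such values was not tested beyond the term for them. The resident response (1779 calls, 1013 higher and 766 lower) gave 629 calls (422 higher, 207 lower) at an adjusted p under 0.01, 529 (363 and 166) with the 6 resident libraries alone, 3449 (1760 and 1689) with a term for Y-linked transcripts, and 2840 (1549 and 1291) without both libraries that carry them. Equal library totals gave 669 higher and 1798 lower. Leaving out 1 library gave 970 (LPS replicate 2) to 2287 (untreated replicate 1) calls, 594 to 1402 of them higher and 376 to 885 lower; without untreated replicate 3 there were 1185 calls, 464 lower, and without either untreated BMDM library 476 lower. Of the difference of responses (5752 calls, 2617 higher and 3135 lower), 1573 were higher at an adjusted p under 0.01, and equal library totals gave 5964 higher and 1798 lower. The cause was not tested. No named gene changed sign while called, whereas the balance of higher and lower calls turned round with equal library totals. Of 210 called named genes 90 kept their call in every one of the 24 refits that tested them, 112 lost it with the resident libraries alone and 77 without LPS replicate 2. A planned count model on the recovered reads was not run; limma's voom on those reads gave 1767 calls. Of the named genes, 14 were too low for the filter at 100.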
